A study of Mus musculus with 3 samples.

Results

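T cells in small clones are the T cells of inflamed sciatic nerve whose receptor was read in 2 to 5 cells of a library. A clone was a set of cells of 1 library with the same V gene, nucleotide CDR3 and J gene in both the α chain (TRA) and the β chain (TRB). The cells counted had exactly 1 productive TRA and 1 productive TRB, which held for 4187 of 6634 cells with receptor contigs. Of these, 1014 cells in 396 clones were members. A further 2113 cells were alone in their clone, and 1060 cells lay in 73 clones of over 5 cells. Members were chosen by the number of cells in their clone, so the size distribution is given as a description without a test.

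The assay was droplet-based scTCR-Seq of CD45+ (immune) cells sorted from the sciatic nerves of female, neuropathic NOD.AireGW/+ mice, with 1 condition and no control group. All mice carried the same heterozygous mutation of Aire, the gene through which the thymus displays tissue antigens to developing T cells, on the autoimmune-prone NOD background, and no treatment or age was given in the sources used here. There were 3 libraries from 4 mice: replicates 1 and 2 held 1 mouse each and replicate 3 pooled 2 mice, which cannot be separated. The libraries held 2374, 3555 and 705 cells with 34630, 41338 and 5142 unique molecular identifiers (UMIs) on productive chains. No doublet caller was run, but requiring exactly 1 chain of each kind left out 704 cells with over 1 productive TRA or TRB, of which 113 had over 1 of both, so a doublet remains where only 1 chain of each kind was read. Gene expression was not analysed here, so CD4+ and CD8+ cells are not divided. The contig files hold 258 TRD contigs, no TRG contig and no immunoglobulin contig, and 6 of the 1014 cells carried a TRD contig beside their TRA and TRB. Replicates 1 and 2 had 7 cell barcodes in common, replicates 2 and 3 had 3, and replicates 1 and 3 had 0. Of the cells in small clones, 5 carried such a barcode, and no shared barcode had the same clone in both libraries.

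A T cell receptor is made by joining 1 of many V segments to a J segment in each chain, with a short D segment between them in the TRB. Enzymes trim the ends and add bases at the joints, and the joint forms the CDR3, the loop that touches the presented peptide. Because the joint is made once per cell and inherited, cells with the same nucleotide joint in both chains are taken as descendants of 1 cell. Small clones lie between cells seen once and the few large expansions that usually lead accounts of an infiltrated tissue.

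The sequences below are the CDR3s, from the conserved cysteine codon to the codon of the phenylalanine or tryptophan, of the clone of 5 cells with most UMIs in each library, and they show how a member is identified. Capitals mark bases outside the germline segments of the C57BL/6 reference (GRCm38). Each match ended at its first mismatch, so a strain difference of NOD can also turn the bases between it and the joint into capitals.
Replicate 1, TRA, TRAV10D with TRAJ23: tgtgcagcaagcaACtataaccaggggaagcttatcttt
Replicate 1, TRB, TRBV15 with TRBJ2-1: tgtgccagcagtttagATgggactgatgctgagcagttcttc
Replicate 2, TRA, TRAV5D-4 with TRAJ30: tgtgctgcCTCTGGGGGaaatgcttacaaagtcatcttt
Replicate 2, TRB, TRBV13-1 with TRBJ1-6: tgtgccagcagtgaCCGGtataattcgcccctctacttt
Replicate 3, TRA, TRAV4-3 with TRAJ21: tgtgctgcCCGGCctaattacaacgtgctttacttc
Replicate 3, TRB, TRBV29 with TRBJ2-2: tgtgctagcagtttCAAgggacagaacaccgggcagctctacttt

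Some small clones had a similar receptor in another library, as did some clones of 1 cell. No small clone had both nucleotide CDR3s in another library. A search for receptors with the same V genes and CDR3 lengths and at most 1 differing residue in each chain was chosen after the values were seen, and gene names that the software uses for near-identical segments were joined for it. It found 22 pairs that involved a small clone, 6 within a library and 16 between libraries. Joining the names gave 404 small clones, of which 14 had such a relative in another library and 2 had exactly the same amino acid CDR3s there. The same counts for clones of 1 cell are not given here. Pairs of small clones were alike in 2 of 35623 within libraries and in 3 of 45783 between them. A small clone and a clone of 1 cell were alike in 4 of 349300 pairs within libraries and 13 of 483748 between them. Pairs of clones of 1 cell were alike in 21 of 857971 and 32 of 1266920. A small clone and a clone of over 5 cells were alike in 0 of 14345 pairs within libraries and 0 of 15955 between them. These are counts of pairs that share clones, so no test was run on them.

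Among the sets of alike receptors that held a small clone, a single set reached all 3 libraries. The sequences of this set are shown because the same TRA joint returned with TRBs that differed at 1 residue. Its 4 clones used TRAV12D-2 (TRAV12-2 once names are joined) with TRAJ9 and TRBV10 with TRBJ1-2. Small clones of 2 cells were found in replicates 2 and 3, and replicate 1 held 2 clones of 1 cell. Capitals mark bases that differ from the clone of replicate 2, and TRBV10, a pseudogene in the reference, was not matched to germline.
Replicate 2, 2 cells, TRA: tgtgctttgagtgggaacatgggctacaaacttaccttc
Replicate 2, 2 cells, TRB: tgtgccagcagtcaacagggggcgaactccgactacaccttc
Replicate 3, 2 cells, TRA: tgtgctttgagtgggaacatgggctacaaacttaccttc
Replicate 3, 2 cells, TRB: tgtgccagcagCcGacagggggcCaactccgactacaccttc
Replicate 1, 1 cell, TRA: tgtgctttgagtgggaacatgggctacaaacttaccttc
Replicate 1, 1 cell, TRB: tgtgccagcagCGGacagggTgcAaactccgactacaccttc
Replicate 1, other 1 cell, TRA: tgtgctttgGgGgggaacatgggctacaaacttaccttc
Replicate 1, other 1 cell, TRB: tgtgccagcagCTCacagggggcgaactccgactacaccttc
The TRA was identical base for base in 3 of the 4 clones. Counted from the cysteine as position 1, the TRB residue at the fifth position was the one that varied, with Q5R in replicate 3 and Q5G and Q5S in replicate 1. The second clone of replicate 1 also had S4G in the TRA. No 2 of the 4 TRBs were the same nucleotide sequence.

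Both small clones whose full amino acid receptor returned in another library were of replicate 1 and had 2 cells. The first used TRAV5-4 with TRAJ43 and TRBV15 with TRBJ1-1, and replicate 2 held the same receptor in 1 cell. The second used TRAV21-DV12 with TRAJ57 and TRBV13-3 with TRBJ2-7, and replicate 3 held it in 1 cell. Their sequences are shown to place the differing bases, in capitals in the second line of each pair.
TRAV5-4 TRA, replicate 1: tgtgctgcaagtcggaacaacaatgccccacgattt
TRAV5-4 TRA, replicate 2: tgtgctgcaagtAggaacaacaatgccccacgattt
TRAV21-DV12 TRA, replicate 1: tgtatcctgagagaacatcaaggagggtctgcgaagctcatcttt
TRAV21-DV12 TRA, replicate 3: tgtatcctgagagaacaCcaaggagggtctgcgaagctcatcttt
TRBV13-3 TRB, replicate 1: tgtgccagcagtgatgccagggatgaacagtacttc
TRBV13-3 TRB, replicate 3: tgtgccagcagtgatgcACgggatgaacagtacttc
The TRAV5-4 receptor differed at 1 TRA base and at 0 TRB bases. The TRAV21-DV12 receptor differed at 1 TRA base and 2 TRB bases.

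Near-identical receptors also arose more than once within a library. In replicate 2 a clone of 5 cells and a clone of 1 cell had the same amino acid CDR3s on TRAV13-1 with TRAJ32 and TRBV15 with TRBJ2-4, but their TRAs differed at 2 bases and their TRBs at 2 bases. In replicate 1, a pair of small clones on TRAV5-1 with TRAJ38 and TRBV13-2 had 4 and 3 cells with joined names. They differed by T10E in the TRB, where the larger used TRBJ2-5 and the other TRBJ2-7, and by 1 TRA base that left the residue unchanged. Replicate 2 held another receptor of this set in 1 cell, with N5S in the TRA. In replicate 2, small clones of 3 and 2 cells on TRAV14-1 (name joined) with TRAJ18 and TRBV1 with TRBJ1-3 had the same TRA and differed by A8P in the TRB. The 4 sequences of the TRAV5-1 pair are shown with the bases of the second clone that differ in capitals.
TRAV5-1 TRA, 4 cells: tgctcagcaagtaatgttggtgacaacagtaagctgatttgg
TRAV5-1 TRA, 3 cells: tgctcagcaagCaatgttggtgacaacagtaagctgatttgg
TRBV13-2 TRB, 4 cells: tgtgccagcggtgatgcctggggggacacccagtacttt
TRBV13-2 TRB, 3 cells: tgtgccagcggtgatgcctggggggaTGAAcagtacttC

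Small clones held a similar share of the paired cells in the 3 libraries, unlike the larger clones. Their share was 23.7% in replicate 1 (exact 95% interval 21.6% to 25.8%), 25.3% in replicate 2 (23.5% to 27.2%) and 20.1% in replicate 3 (16.1% to 24.5%), a mean of 23% ± 2.69 (SD, n = 3). The 3 intervals overlap, which does not show that the shares were equal, and the difference between libraries was not tested. Clones of over 5 cells held 29.2%, 26.1% and 3.52% of paired cells in the same order, and clones of 1 cell held 47.1%, 48.6% and 76.4%. Intervals are Clopper-Pearson intervals and cover only counting error, as if cells of a clone had been drawn separately. Pooling of 2 mice and the lower cell number move together with replicate 3 and cannot be told apart from any property of its mice.

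**Figure D1:**
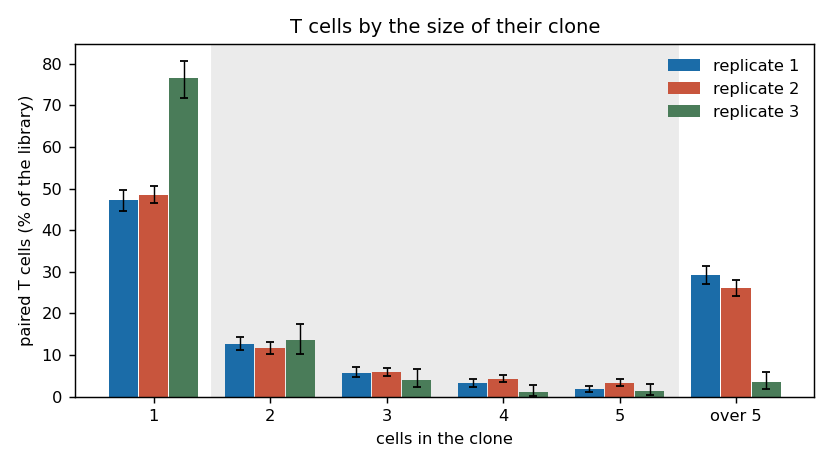
T cells by the size of their clone in each library. Bars give the percent of paired cells in clones of 1, 2, 3, 4, 5 and over 5 cells, error bars are exact 95% binomial intervals, and the grey band marks the small clones. Cells in clones of 2 made up 12.7%, 11.6% and 13.6% of replicates 1, 2 and 3, and clones of over 5 cells were rare in replicate 3 alone.

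Most small clones had 2 cells. There were 256 clones of 2 cells (64.6% of 396), 80 of 3, 38 of 4 and 22 of 5. Just outside the limits lay 14 clones of 6 cells and the 2113 clones of 1 cell. Clones of 2 cells made up 67.1% of the small clones in replicate 1, 60.8% in replicate 2 and 78.1% in replicate 3. The mean small clone had 2.49, 2.65 and 2.31 cells.

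The number of cells per clone is a lower count, because cells that lost a chain are not paired. For 82 of 396 small clones (20.7%), 155 further cells carried the clone's TRB without a TRA, up to 11 cells for 1 clone. For 77 clones, 168 further cells carried both chains of the clone with an additional productive chain. Both numbers were summed clone by clone, so a cell can count for each small clone that shares its chain. With both kinds of cell counted, 41 of the 396 small clones would exceed 5 cells. The deposited clonotype names, which group cells by the software's own rule, placed all cells of a small clone in 1 clonotype for 392 of 396 clones, and that clonotype held over 5 cells for 37 clones (9.34%).

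Gene naming also split some members. Software that annotates contigs gave the same β sequence either of 2 names, TRBV13-2 or TRBV12-2+TRBV13-2. Of the small clones, 26 shared both nucleotide CDR3s with another clone of their library under another gene name, as did 51 clones of 1 cell. These made 41 sets, of which 40 were this pair of names, and in 5 sets with a small clone the sum exceeded 5 cells. For example, a clone of 5 cells in replicate 2 on TRAV8D-2 and TRBV12-2+TRBV13-2 had the TRB below, base for base that of a clone of 7 cells named TRBV13-2. Capitals mark bases outside germline.
TRBV13-2 TRB, 7 cells: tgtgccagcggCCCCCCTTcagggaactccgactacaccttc
The remaining set carried the names TRAV12-3 and TRAV12D-3, with 5 cells and 1 cell.

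Contigs other than those that define a clone were nearly always the same among its cells. Those with the V and J names of the clone's own chains were not left out, so the agreement may in part follow from the rule. A T cell can carry a further, nonproductive joint on its other chromosome. Of the 1014 cells, 219 had a further TRA contig and 114 a further TRB contig. None of these 340 contigs was productive, which largely follows from choosing cells with exactly 1 productive chain of each kind. Such contigs counted as the same when V and J names agreed and the nucleotide CDR3s were equal or missing in either. For cells with several, 1 match was enough. Pairs of cells of 1 small clone that both had such a contig of the same chain had the same one in 103 of 109 pairs (94.5%, exact 95% interval 88.4% to 98%). Pairs of cells from different small clones of a library had the same one in 48 of 12718 pairs (0.377%), of which replicate 1 held 44 of 6175 (0.713%), replicate 2 held 4 of 6337 (0.0631%) and replicate 3 held 0 of 206. Replicate 1 had the same one in 46 of 50 such pairs, replicate 2 had 52 of 54, and replicate 3 had 5 of 5. By chain it was 67 of 69 pairs for the TRA and 36 of 40 for the TRB. Pairs share cells, so the interval is narrower than the number of clones would give, and no test was run.

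The constant region followed the J segment. The TRB constant gene is TRBC1 after a TRBJ1 segment and TRBC2 after a TRBJ2 segment, since each J cluster lies just before its own C gene. Of the small clones, 390 had at least 2 cells with a named TRBC gene, and in all 390 the name was the same, which the TRBJ used to define a clone already fixes. TRBC1 was named in 373 of 373 such cells with a TRBJ1 and TRBC2 in 632 of 632 with a TRBJ2.

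No V or J segment passed the test between small clones and clones of 1 cell. The unit was the clone, and each segment was tested by an exact two-sided conditional test stratified by library, with Benjamini-Hochberg adjustment over 125 segments that had at least 10 clones. At an adjusted p under 0.05 the count was 0 (0% of 125), and at an unadjusted p under 0.05 it was 4 (3.2%). The quasi-likelihood test of edgeR passed 0 after adjustment and 3 without, with an adjusted p of 0.941 for TRBJ2-7. Odds ratios ran from 0.194 to 2.16 with a median of 1.01, and 63 were above 1 and 62 below. These tests compare clones of these libraries, and their p-values do not carry the spread between mice.

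The 12 TRBJ segments include the one with the lowest p of all. TRBJ2-7, the last segment of the second cluster (chr6:41543810-41543856 of GRCm38, plus strand), was the most used TRBJ in clones of 1 cell. Replicate 1 had it in 19 of 152 small clones (12.5%) and 164 of 755 clones of 1 cell (21.7%). Replicate 2 had it in 28 of 212 (13.2%) and 232 of 1076 (21.6%). Among clones of replicate 3 the counts were 8 of 32 (25%) and 54 of 282 (19.1%). The small clones were thus lower in the 2 libraries of 1 mouse and higher in the pooled one. Together 55 small clones had it where 79.8 were expected from its share among all clones of 1 to 5 cells in each library. The odds ratio was 0.595 (95% interval 0.431 to 0.809). The p of the exact test was 0.000607, and the adjusted p was 0.0759. Without replicate 3 the odds ratio was 0.538 and the adjusted p 0.0133. Whether replicate 3 differed from the others was not tested.

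**Figure D2:**
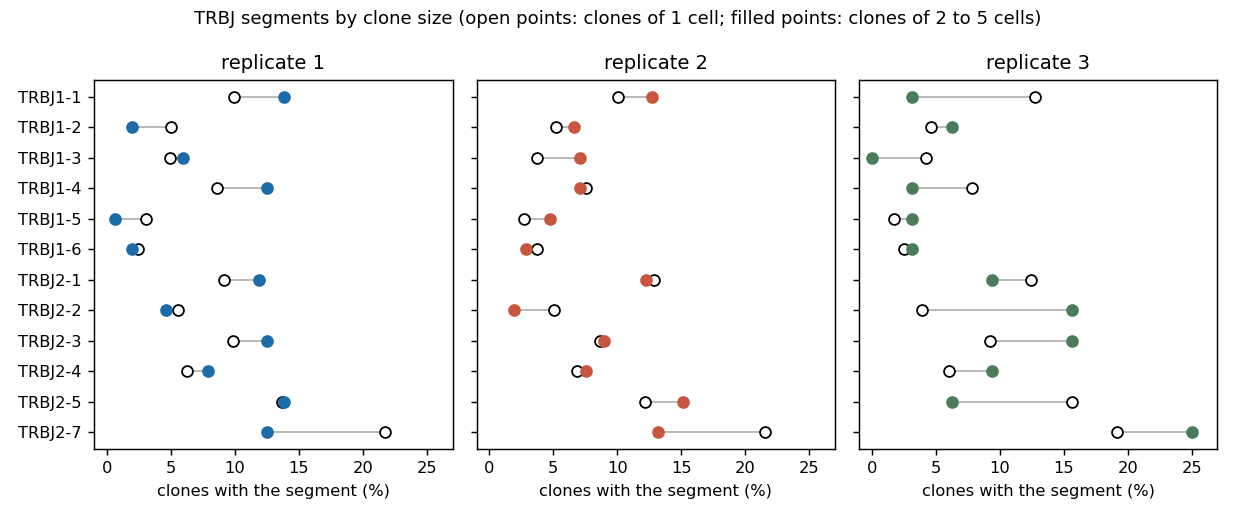
TRBJ segments in small clones and clones of 1 cell. Each panel is a library, the horizontal axis is the percent of clones with the segment, open points are clones of 1 cell and filled points are clones of 2 to 5 cells, joined by a grey line. TRBJ2-7 was 12.5% against 21.7% in replicate 1, 13.2% against 21.6% in replicate 2 and 25% against 19.1% in replicate 3, where each small clone is a large step because there were 32.

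By clone size, TRBJ2-7 was in 37 of 256 clones of 2 cells (14.5%, exact interval 10.4% to 19.4%), in 9 of 80 clones of 3 cells (11.2%, 5.28% to 20.3%) and in 9 of 60 clones of 4 or 5 cells (15%, 7.1% to 26.6%). In clones of over 5 cells it was in 15 of 73 (20.5%, 12% to 31.6%), beside 21.3% of clones of 1 cell. The share was lower in small clones for 12 of the 15 TRBV names with at least 10 small clones. With TRBV15 it was in 0 of 14 small clones and 17 of 72 clones of 1 cell. With TRBV19 it was in 5 of 25 and 63 of 188. Under the name TRBV13-2 the order was the other way, 4 of 15 and 19 of 109. Under TRBV12-2+TRBV13-2, the other name given to the same sequences, it was in 4 of 42 and 51 of 228. These names were counted apart among the 15.

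The other TRBJ segments lay closer to the clones of 1 cell. TRBJ1-3 had the highest ratio, 24 small clones and an odds ratio of 1.45 (0.872 to 2.34, adjusted p = 0.938 in the exact test). TRBJ2-5 was in 55 small clones, as many as TRBJ2-7, with an odds ratio of 1.07 (0.77 to 1.47). TRBJ1-1, TRBJ2-1 and TRBJ2-3, the other segments with a high mean share, had 49, 47 and 43 small clones and ratios of 1.23, 1.05 and 1.22. Of the 6 TRBJ1 segments, 4 had a ratio above 1, and so did 4 of the 6 TRBJ2 segments. As a whole the TRBJ2 cluster was in 247 of 396 small clones (62.4%) and 1408 of 2113 clones of 1 cell (66.6%), an odds ratio of 0.834 (0.664 to 1.05, adjusted p = 0.381 in the exact test).

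TRBV14 had the lowest p among V segments. It encodes the variable domain long known as Vβ13 and lies at chr6:41135145-41135616, plus strand. It was in 6 of 152 small clones in replicate 1 (3.95%, against 1.85% of clones of 1 cell), in 13 of 212 in replicate 2 (6.13% against 2.79%) and in 3 of 32 in replicate 3 (9.38% against 6.03%). Small clones were higher in all 3 libraries. The odds ratio was 2.12 (1.22 to 3.57), with p = 0.0068 and an adjusted p of 0.425 in the exact test. Clones of over 5 cells had it in 2 of 73 (2.74%). With chains of at least 3 UMIs the odds ratio was 1.28 (p = 0.445 in the exact test, unadjusted).

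The 5 TRBV segments with the highest mean share of small clones over the libraries had intervals that included 1. TRBV5 was in 44 small clones (odds ratio 1.06, 0.735 to 1.51), TRBV12-2+TRBV13-2 in 42 (0.988, 0.68 to 1.41), TRBV13-1 in 40 (1.19, 0.804 to 1.71), TRBV16 in 29 (1.06, 0.675 to 1.62) and TRBV1 in 26 (0.885, 0.552 to 1.37). TRBV13-2, the other name given to sequences of TRBV12-2+TRBV13-2, was in 15 (0.73, 0.39 to 1.28) and was ranked apart. By library TRBV5 was in 15.1%, 8.96% and 6.25% of small clones and 12.1%, 9.76% and 8.16% of clones of 1 cell. The difference between libraries in both classes was wider than that between the classes. Small clones used 21 TRBV names and clones of 1 cell 22.

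Among TRAJ segments, TRAJ23 had the lowest p and was also the most used in small clones. It lies at chr14:54196081-54196140 and was in 7.24%, 8.96% and 6.25% of small clones of replicates 1, 2 and 3, against 4.24%, 5.39% and 4.61% of clones of 1 cell. All 3 libraries were higher in small clones, 32 clones where 21.4 were expected, with an odds ratio of 1.71 (1.09 to 2.61, p = 0.0147 and adjusted p = 0.611 in the exact test). Clones of over 5 cells had it in 6 of 73 (8.22%). TRAJ31, TRAJ15, TRAJ40 and TRAJ39, the other segments with a high mean share, were in 21, 19, 17 and 11 small clones with ratios of 1.3, 1.51, 1.03 and 0.987. J segments far along the locus are reached by later rearrangements of the same chromosome. TRAJ segments numbered 30 or lower, which lie toward the distal end, were in 42.2% of small clones and 41.9% of clones of 1 cell (odds ratio 1.01, 0.806 to 1.26).

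Among TRAV segments TRAV12-3 had the lowest p, in 3 small clones and 50 clones of 1 cell, with an odds ratio of 0.315 (0.0624 to 0.983, p = 0.0363 and adjusted p = 0.938 in the exact test). It was lower in replicates 1 and 2 and higher in replicate 3, where it was in 1 small clone. All 3 small clones had 3 to 5 cells, a class in which the odds ratio was 0.918, and no clone of 2 cells had it. With near-identical gene names joined the ratio was 0.193, and with clones defined by nucleotide CDR3s alone it was 0.199. The 5 with the highest mean share were TRAV13-1 with 22 small clones, TRAV5-4 with 21, TRAV4-3 with 18, and TRAV12D-2 and TRAV16N with 16 each. Their ratios were 1.26, 0.85, 1.49, 1.14 and 1.17, and every interval included 1. TRAV segments of the duplicated part of the locus are near-identical, so clones of TRAV12-3 and TRAV12D-3 or of TRAV5-4 and TRAV5D-4 may be divided between names.

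**Figure D3:**
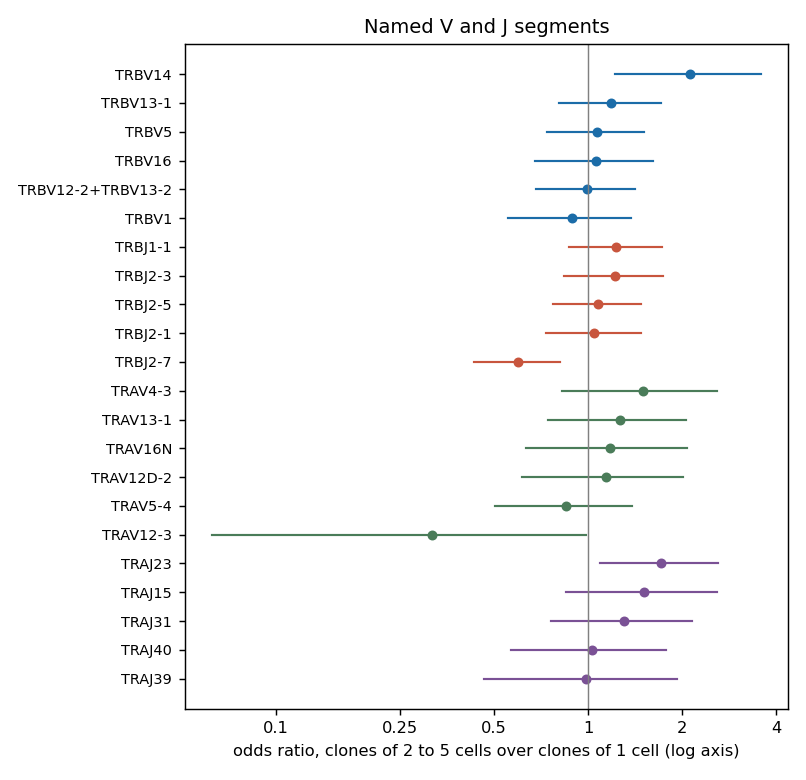
Odds ratios of the 22 named segments. Points are the common odds ratio over the 3 libraries of a clone of 2 to 5 cells having the segment, relative to clones of 1 cell, lines are exact 95% intervals, the axis is logarithmic and colours divide TRBV, TRBJ, TRAV and TRAJ. The intervals of TRBJ2-7, TRBV14, TRAJ23 and TRAV12-3 do not include 1, and none of the 22 passed after adjustment over all segments.

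V and J segments combined widely in the small clones. The 396 clones used 154 TRBV-TRBJ combinations, of which 53 in 1 clone only, and 312 TRAV-TRAJ combinations, of which 242 in 1 clone only. Of 105 combinations tested in both chains together, 0 passed after adjustment (0%) and 1 had an unadjusted p under 0.05 (0.952%) in the exact test. That combination was TRBV19 with TRBJ2-5, in 0 of 396 small clones and 24 clones of 1 cell, where 3.72 small clones were expected (upper limit of the odds ratio 0.899, p = 0.0401 and adjusted p = 1 in the exact test). With names kept apart, the most common TRB combination was TRBV12-2+TRBV13-2 with TRBJ2-5. It was in 11 small clones, 2 of replicate 1 and 9 of replicate 2, and 44 clones of 1 cell (odds ratio 1.35, 0.622 to 2.69). Under the other name, TRBV13-2, it was in 0 small clones and 11 clones of 1 cell. TRBV5 with TRBJ1-1 followed with 8 small clones and TRBV12-2+TRBV13-2 with TRBJ2-1 with 7. The TRA combination in most small clones was TRAV9-1 with TRAJ42, named after its values were seen. It was in 5 small clones, 2 of replicate 1 and 3 of replicate 2, and in 2 clones of 1 cell, so it fell under the minimum of 10 clones and was not tested at it. Of the tested TRA combinations, 4 were in 3 small clones and none in more. TRAV12D-2 with TRAJ23, TRAV13-1 with TRAJ32 and TRAV16N with TRAJ48 each had all 3 in replicate 2, and TRAV6-6 with TRAJ23 had 1 in replicate 1 and 2 in replicate 2 (odds ratio 2.39, 0.394 to 10.6).

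The pairing of the 2 chains was diverse too. Small clones used 293 TRAV-TRBV pairs, of which 228 occurred in 1 clone and 40 in 2. The 4 segments of a clone formed 391 different sets in 396 clones. Of 42 pairs tested, 0 passed after adjustment (0%) and 2 had an unadjusted p under 0.05 (4.76%). TRAV6-6 with TRBV13-3 was in 7 small clones, 3 of replicate 1 and 4 of replicate 2, and in 9 clones of 1 cell, with 2.66 small clones expected (odds ratio 3.96, 1.24 to 12, p = 0.00963 and adjusted p = 0.404 in the exact test). With chains of at least 3 UMIs the odds ratio of this pair was 1.98, in clones of 2 cells only it was 2.63, and in clones of 3 to 5 cells it was 6.4, with adjusted p = 0.866, 0.922 and 0.267 in the exact test. TRAV13-1 with TRBV13-1 was in 5 small clones, at least 1 in each library, and 8 clones of 1 cell (odds ratio 3.3, 0.843 to 11.5, adjusted p = 0.745 in the exact test). TRAV9-1 with TRBV16 was also in 5 small clones and had a ratio of 2.01 (0.56 to 5.97).

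CDR3 length did not pass the test in either chain. The TRB CDR3 had 10 to 19 residues with a median of 14 in both classes. Its mean was 14.1 ± 1.31 residues (SD, n = 152 clones) in replicate 1, 14 ± 1.33 (n = 212) in replicate 2 and 14.3 ± 1.75 (n = 32) in replicate 3. Clones of 1 cell had means of 14, 13.9 and 13.9 residues. Small clones were longer in all 3 libraries, by 0.125 residues (SE 0.0767) in limma with library as a term, which did not pass (adjusted p = 0.417, interval -0.0257 to 0.275). Short TRB CDR3s of 12 residues or fewer were in 50 small clones (12.6%) and 336 clones of 1 cell (15.9%), lower in all 3 libraries (odds ratio 0.777, 0.553 to 1.08, adjusted p = 0.381 in the exact test). The TRA CDR3 differed by -0.0248 residues (SE 0.075, adjusted p = 0.88 in limma).

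**Figure D4:**
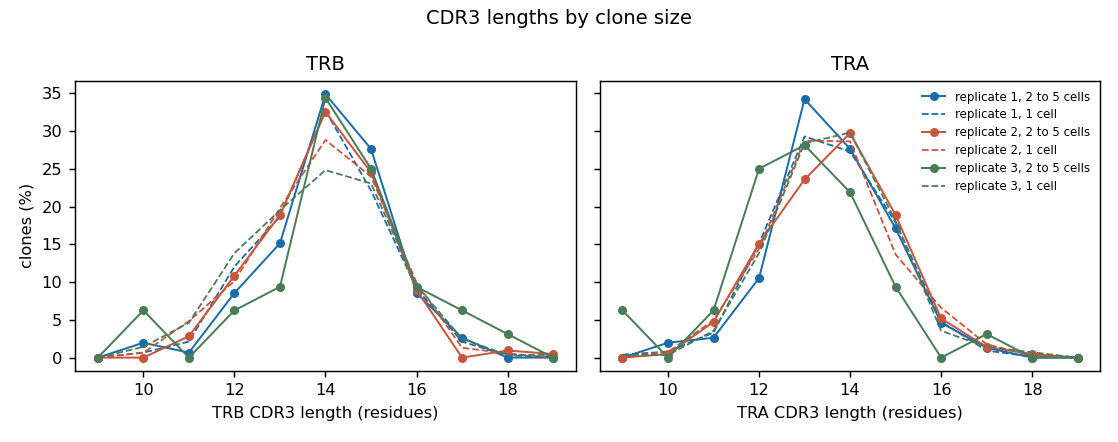
CDR3 length of small clones and clones of 1 cell. The horizontal axis is the length in residues, the vertical axis the percent of clones of the class in the library, solid lines with points are clones of 2 to 5 cells and dashed lines clones of 1 cell. The TRB lines peak at 14 residues in all 3 libraries and both classes, and the lines of replicate 3 are uneven because they rest on 32 small clones.

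A net negative TRB CDR3, counted from lysine and arginine against aspartate and glutamate, was found in 233 of 396 small clones (58.8%) and 1383 of 2113 clones of 1 cell (65.5%). It was lower in small clones of all 3 libraries, with an odds ratio of 0.759 (0.606 to 0.953, p = 0.0161 and adjusted p = 0.113 in the exact test). Among clones with TRBJ2-7, whose germline segment contributes a glutamate, 77.8% of those of 1 cell and 74.5% of the small ones were net negative. With clones of TRBJ2-7 left out, 56.3% of small clones and 62.1% of clones of 1 cell were net negative, again lower in all 3 libraries, with an odds ratio of 0.789 (0.619 to 1.01, p = 0.0507 in the exact test, unadjusted). The share of clones at a net charge of 0 was 33.1% and 26.5%, that at -1 was 33.3% and 40.3%, and net positive TRBs made up 8.08% and 8.09%.

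The number of bases outside germline did not pass the test in either chain. It is not a count of added bases alone, since each match ended at its first mismatch. A strain difference of NOD therefore also counts the bases between it and the joint. The TRBs of small clones had on average 0.107 more bases outside germline (SE 0.135, adjusted p = 0.692 in limma, over 335 and 1810 clones that could be matched), and their TRAs 0.123 more (SE 0.19, adjusted p = 0.692, over 295 and 1499 clones). A TRB with no base outside germline was in 23 of 335 small clones and 138 of 1810 clones of 1 cell (odds ratio 0.871, 0.525 to 1.39). Hydrophobicity of the loop differed by -0.0522 (SE 0.0398) in the TRA and -0.0102 (SE 0.0418) in the TRB on the Kyte-Doolittle scale. At positions 6 and 7 of the TRB, where hydrophobic residues are known to favour self-reactivity, it differed by 0.0644 (SE 0.095), and an aromatic residue there was in 12.4% and 12.3% of clones. Hydrophobicity did not pass in limma, and the aromatic residue did not pass in the exact test. The residues DWG in the TRB were in 15 small clones (3.79%) and 104 clones of 1 cell (4.92%), an odds ratio of 0.751 (0.401 to 1.32). A cysteine inside either CDR3 was in 26 small clones (6.57%) and 162 clones of 1 cell (7.67%).

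Invariant receptors were nearly absent. The TRAV1 with TRAJ33 chain that marks mucosal-associated invariant T cells was in 1 small clone and 12 clones of 1 cell. The TRAV11 or TRAV11D with TRAJ18 chain that marks invariant natural killer T cells was in 0 of 396 small clones and 5 clones of 1 cell, and a count of 0 allows up to 3 clones. Chains with the same V, CDR3 residues and J in another library were in 31 small clones for the TRA (7.83%, against 5.63%, odds ratio 1.49, 0.951 to 2.27) and 12 for the TRB (3.03% against 2.18%, odds ratio 1.44, 0.686 to 2.8). Neither passed after adjustment in the exact test (adjusted p = 0.319 and 0.707). Against clones of 1 cell with unshared chains, the TRA trait passed.

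Of the 21 traits scored as present or absent, 1 passed after adjustment (4.76%) and 3 had an unadjusted p under 0.05 (14.3%). The one that passed was a TRB shared with another clone of the library. It was in 28 small clones (7.07%) and 59 clones of 1 cell (2.79%), an odds ratio of 2.5 (1.51 to 4.05, adjusted p = 0.00643 in the exact test). Replicate 1 had 13 of 152 such small clones and replicate 2 had 15 of 212, while replicate 3 had 0 in both classes. Sharing is not independent of the rule, since the same chain calls define a clone, so the count is a description. For 10 of the 28 small clones and 11 of the 59 clones of 1 cell, some cell of the library carried both partner TRAs with that TRB. With chains of at least 3 UMIs the odds ratio was 4.3. With the linked partners and partners under another gene name left out, 17 small clones and 47 clones of 1 cell remained (odds ratio 1.86, 0.986 to 3.34, p = 0.0393 in the exact test, unadjusted). A TRA was shared by 45 small clones (11.4%) and 146 clones of 1 cell (6.91%), with an adjusted p of 0.0791. For 25 of the 45 and 50 of the 146 the partner TRB was the same nucleotide sequence under another name. Without those and 3 linked clones in each class the ratio was 0.942 (0.52 to 1.62).

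**Figure D5:**
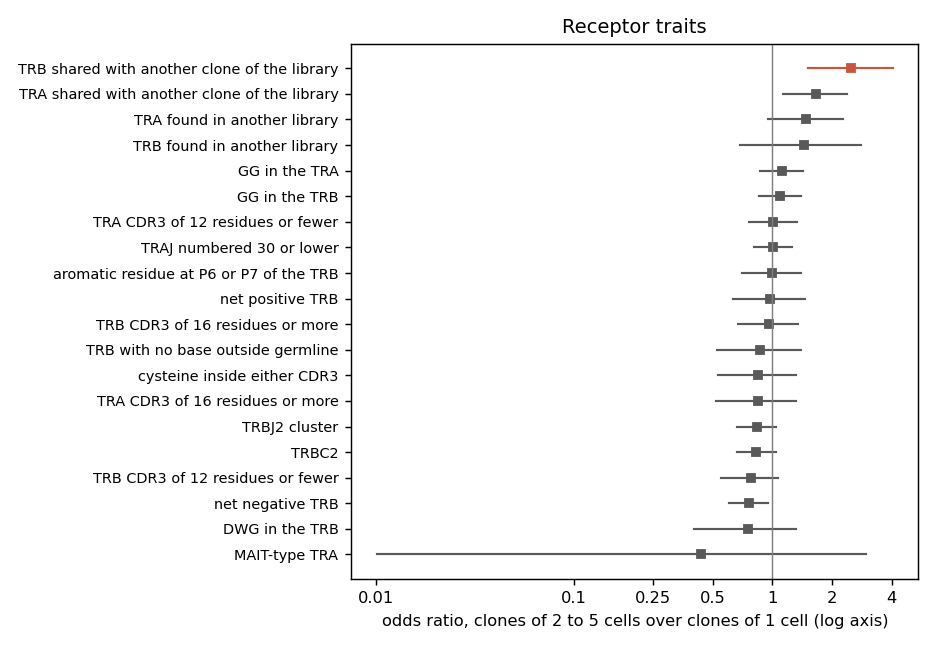
Odds ratios of the receptor traits scored as present or absent. Squares are the common odds ratio over the 3 libraries for clones of 2 to 5 cells relative to clones of 1 cell, lines are exact 95% intervals and the axis is logarithmic. The brick-red trait, a TRB shared with another clone (odds ratio 2.5), is the one that passed after adjustment over 21 traits, and the TRAV11 with TRAJ18 trait is not drawn because its ratio was 0.

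Cells of small clones carried somewhat more receptor UMIs than cells alone in their clone. The median was 5 TRA UMIs per cell in both classes in replicate 1, 4 against 3 in replicate 2 and 3 against 2 in replicate 3. For the TRB it was 7 in both classes, 6 against 5 and 4.5 against 4. Cells in clones of over 5 cells had medians at or above those of small clones. They were 6, 4 and 5 for the TRA and 9, 7 and 5 for the TRB, with 13 such cells in replicate 3. Cells with a single TRA UMI made up 9.5%, 13.5% and 21.6% of the cells of small clones and 12.3%, 17.5% and 29.8% of cells alone in their clone. Of 12 numeric traits tested with limma 2 passed (16.7%), the TRA and TRB UMIs per cell, by 0.25 (SE 0.04) and 0.23 (SE 0.05) on the scale of log2(UMIs + 1), higher in all 3 libraries (adjusted p = 2.63e-08 and 2.72e-05). These values take the log of a clone's mean, which is raised by averaging over several cells. With the log taken in each cell first, the differences were 0.15 (SE 0.04, adjusted p = 0.00433) for the TRA and 0.11 (SE 0.05, adjusted p = 0.2) for the TRB in limma. A clone needs 2 paired cells to count as small, so depth moves with the class, and the values on chains of at least 3 UMIs are given above for TRBV14, TRAV6-6 with TRBV13-3 and TRB sharing. For TRBJ2-7 that setting gave an odds ratio of 0.71 (adjusted p = 1 in the exact test).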

How the data were processed

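The authors aligned 10X Genomics scTCR-Seq reads with Cell Ranger on mm10 (version not given in the sources used here), called cells and assembled contigs. Per contig they deposited counts of UMIs and reads, V, D, J and C gene names, CDR3s and the length in bases, another measure that was not used. Clonotype and consensus files were not used beyond the clonotype names in the contig annotation.

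Groups came from the labels, as 1 condition with 3 libraries. Members and lists were chosen with earlier results of these data known. Productive TRA and TRB contigs with a CDR3 in cell barcodes were kept, then barcodes with exactly 1 of each, with no doublet caller. Tests were exact conditional tests stratified by library with common odds ratios (segments, combinations and pairs of at least 10 clones), limma for numeric traits with library as a term, and Benjamini-Hochberg adjustment within each family. Intervals are 95%. Those of the tests, and the p-values, measure spread between clones. Those of the shares of cells and of the agreement of further contigs cover counting error over cells and pairs of cells. None measures spread between mice. UMIs and cells limit the precision. The exact test and limma were tested on simulated data, but edgeR and the sign-flip test of library means were not. The named segments were the 5 with the highest mean share in small clones and the lowest p in each of TRBV, TRBJ, TRAV and TRAJ, with the 3 most used combinations. Named clones were the largest with most UMIs in each library, those with an amino acid pair in another library and up to 5 with several rearrangements for 1 pair. Germline matches and coordinates came from GENCODE M21 on GRCm38, and 3318 of 3860 TRB and 2290 of 3278 TRA rearrangements were matched.

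Alternatives were other clone definitions, other size limits, joined gene names, chains of at least 3 UMIs, a minimum of 5 or 20 clones, edgeR and leaving out each library. R 4.3.3 ran limma 3.58.1 and edgeR 4.0.16, and scipy 1.17.1, numpy 2.4.6, matplotlib 3.10.9 and pandas 2.3.3 ran under Python 3.11.15.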

Additional observations from a re-analysis of the deposited data

How the results depend on the processing

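No paired analysis was possible because only 1 group of samples was measured, and the clone classes were compared within each library instead. No V-J combination or TRAV-TRBV pair passed under any alternative run. The count of segments was 1, TRBJ2-7, instead of 0 with amino acid clones (odds ratio 0.586, adjusted p = 0.048 in the exact test) and with clones of 1 cell that shared no chain (0.559, 0.0174), and ran from 0 to 1 over the 3 leave-one-out fits, with 1 without replicate 3. The count of traits was 2 with amino acid clones, 0 with clones of 2 cells only and 3 against clones of 1 cell with unshared chains. It ran from 0 to 2 with a library left out. In the setting with unshared chains, TRA and TRB sharing are fixed by construction, and the other trait was a TRA found in another library. TRB sharing did not pass without replicate 1 (odds ratio 2.65), without replicate 2 (2.34) or in clones of 2 cells only (2.21). TRA sharing passed with amino acid clones (1.74) and without replicate 3 (1.73). The count of numeric traits was 0 with library means, whose exact sign-flip test cannot give a p below 0.25, and 1 with the log of UMIs taken in each cell. The mean share of cells was 12.6% for clones of 2 cells only and 10.4% for clones of 3 to 5 cells, which are parts of the class. TRA sharing reversed to an odds ratio of 0.942 once linked and renamed partners were left out. That setting, the log of UMIs per cell and the test without TRBJ2-7 were chosen after seeing the data. The further contigs agreed, by the same rule of names and CDR3s, in 90.5% to 96.6% of pairs under the alternatives. Replicate 3 had 32 small clones, so differences within it rest on a few clones.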
